A study of Mus musculus with 4 samples.

Results

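The beta-globin locus of the mouse was examined in maps of H3K27ac, acetylation of lysine 27 of histone H3, which marks active promoters and enhancers. The locus was taken as the stretch of chromosome 7 from 110930000 to 111070000 on the genome build mm9, a window of 140 kb that holds the beta-like globin genes, their locus control region and flanking olfactory receptor genes. Every peak of H3K27ac that overlapped the window by at least 1 bp was a member. There were 50 such peaks among the 151551 of the 6 peak lists, and none crossed an edge of the window.

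The maps came from ChIP-seq, which sequences the chromatin pulled down by an antibody against the modification. One line was G1E, untreated erythroid progenitors of strain 129 that were grown from embryonic stem cells with a knockout of Gata1, and the other was G1E-ER4, the same Gata1-knockout line carrying a virus for GATA1-ER, a form of GATA1 that is inactive until a hormone is added. G1E-ER4 cells received 10 nM estradiol for 24 h (G1E-ER4+E2). Each group had 2 replicates with a peak list each, and each line also had 1 pooled list made by the authors. Both lines lack their own GATA1 and are immortalised, so they are models of erythroid maturation. No G1E cells with estradiol and no G1E-ER4 cells without it were among the samples, so that effects of the virus, the hormone and GATA1-ER cannot be told apart. The labels do not say that the replicates were separate cultures, and p-values then measure only the spread between these samples, which may be technical.

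The genes of the cluster encode the beta-like chains of hemoglobin, and they are switched in development. Hbb-y and Hbb-bh1 are embryonic genes of the first red cells made in the yolk sac, and Hbb-b1 and Hbb-b2 are the adult genes that take over in definitive red cells. High expression of all of them in erythroid cells depends on the locus control region, a group of strong enhancers at the embryonic end of the cluster, and GATA1 and TAL1 are among the factors that bind there. The surrounding olfactory receptor genes belong to a family expressed in sensory neurons of the nose. Their expression in the cells studied here was not measured.

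Strain 129 carries the adult genes Hbb-b1 and Hbb-b2, whereas the reference assembly, made from C57BL/6J mice, has the alleles Hbb-bt and Hbb-bs in their place. In the RefSeq gene table for GRCm38.p6 the order along chromosome 7 was Olfr67, Hbb-bt, Hbb-bs, the pseudogenes Gm15115 and Hbb-bh3, Hbb-bh2, Hbb-bh1, Hbb-y and Olfr66. Olfactory receptor genes thus stood on both sides of the globin genes, with 29 of them in a row next to Hbb-bt and 1 next to Hbb-y. No gene positions on mm9 were used here, so it was not determined which gene lies under which peak. The adult genes are related copies, and how reads that fit more than 1 place were handled is not given in the sources used here.

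The promoters of 3 genes of the cluster that the RefSeq promoter table holds are shown because their shared boxes are the sequence side of the locus to which the enhancers of the control region are known to act. Of the 4 members, Hbb-y was found in that table, and the adult alleles Hbb-bt and Hbb-bs were added for the C57BL/6J reference. The 250 bases before each start site are given 5′ to 3′ from GRCm38.p6, all on the minus strand, with capitals marking 3 motifs on either strand, the box CACCC, the box with the letters CCAAT and the GATA motif. The GATA motif was searched as AGATAA, which is found in Hbb-bs, and with its last letter changed to G, as AGATAG. It was also searched as TGATAA, which is found in Hbb-y on the other strand, and with the same change of the last letter, as TGATAG. They lie at chr7:103813924-103814173 for Hbb-bt, chr7:103827929-103828178 for Hbb-bs and chr7:103853208-103853457 for Hbb-y.
Hbb-bt: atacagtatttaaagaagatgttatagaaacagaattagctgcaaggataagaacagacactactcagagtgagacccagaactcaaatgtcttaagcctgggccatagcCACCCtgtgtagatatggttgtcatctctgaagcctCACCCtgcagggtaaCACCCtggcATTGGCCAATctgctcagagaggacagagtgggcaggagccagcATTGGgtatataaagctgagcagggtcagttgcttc
Hbb-bs: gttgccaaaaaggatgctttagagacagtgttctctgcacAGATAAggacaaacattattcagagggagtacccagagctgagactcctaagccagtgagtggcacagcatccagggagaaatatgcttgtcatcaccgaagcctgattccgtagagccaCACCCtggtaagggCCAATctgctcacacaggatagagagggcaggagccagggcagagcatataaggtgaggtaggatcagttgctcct
Hbb-y: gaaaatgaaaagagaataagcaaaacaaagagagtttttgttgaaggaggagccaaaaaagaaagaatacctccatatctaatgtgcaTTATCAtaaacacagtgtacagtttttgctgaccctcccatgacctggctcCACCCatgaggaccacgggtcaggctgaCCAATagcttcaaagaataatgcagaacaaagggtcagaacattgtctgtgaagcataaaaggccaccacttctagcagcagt

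All 3 promoters held a CACCC box, the letters bound by KLF1, an erythroid activator, and a CCAAT box nearer the start site. In Hbb-bs the CACCC box lay at -90 to -86 and the CCAAT box at -76 to -72 from the start site. In Hbb-y they lay at -111 to -107 and at -83 to -79. Hbb-bt held 3 CACCC boxes, the nearest at -89 to -85, and 3 CCAAT boxes, of which a pair in opposite directions stood side by side from -80 to -71. The GATA motif, the letters that GATA1 is known to bind, was found once in Hbb-bs, at -210 to -205, and once in Hbb-y, at -162 to -157 on the other strand, and these letters were not in the Hbb-bt window. Of 32851 mouse promoters of this length, 52.0% held CACCC, 33.8% held CCAAT, 26.5% held the GATA motif and 3.92% held all 3. The adult promoters were 70.9% identical to each other over their alignment, and each was less like that of Hbb-y, with 54.4% for Hbb-bt and 53.0% for Hbb-bs. Matches are a description of letters and not of binding.

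For each peak the authors' caller gave borders, an enrichment, a linear ratio over background, and a q-value, a p-value corrected for the number of regions tested. The lists held 21557 and 23451 peaks in G1E and 29087 and 26740 in G1E-ER4+E2, with 24332 and 26384 in the pooled lists. Read counts are not part of them, and the depth is unknown. Median enrichment was 6.69 and 7.76 in the G1E replicates against 2.98 and 3.59 in those of G1E-ER4+E2, so enrichment was read only within a list, as a percentile, the share of the list's peaks with a lower value. All borders in all lists fell on a grid of 200 bp, which limits how finely a border can be read. The whole lists also differed in extent. G1E peaks covered 126 and 113 Mb of the genome and G1E-ER4+E2 peaks 163 and 161 Mb, which is 1.35 times as much on average, and this difference stands beside every comparison of length that follows.

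The locus held broad H3K27ac in both lines, and more of it was covered in G1E-ER4+E2. Peaks covered 45.2 and 49.8 kb of the window in the G1E replicates and 69.4 and 81.6 kb in the G1E-ER4+E2 replicates. Both G1E-ER4+E2 values were higher than both G1E values. The means were 47.5 ± 3.25 kb and 75.5 ± 8.63 kb (SD, n = 2 each), a difference of 28 kb and a ratio of 1.59. The two-sided exact permutation test gave p = 0.333, the smallest that this test can give for 2 samples against 2, so it cannot reach 0.05 here or for any interval below. In the pooled lists the lengths were 49.4 and 82.6 kb, a ratio of 1.67. When all lists were cut by enrichment to the same covered length of the genome, the mean difference in the window was 25.9 kb. The part of the difference in total peak length between the lines in the result for the locus was not tested further.

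Few stretches of the genome of this length held as much. Among 18867 windows of 140 kb laid end to end over the genome, 3.49% and 1.81% were covered at least as much as the locus in the G1E replicates, and 2.18% and 0.996% in the G1E-ER4+E2 replicates. These windows had fixed positions that can split a covered region, whereas that of the locus was placed around it, which can favour the locus. The median window was not covered in any list. A gain in G1E-ER4+E2 at least as large as that of the locus, 28 kb, was seen in 725 windows, or 3.84%. The locus was therefore among the more extensively covered regions in both lines, and its gain in length was in the upper part of the genome's range without being its extreme.

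The numbers of peaks did not differ in step with the length. There were 8 and 9 peaks in the G1E replicates, 8 and 9 in the G1E-ER4+E2 replicates and 8 in each pooled list. Those above the median enrichment of their own list numbered 4 and 5 in G1E and 8 and 7 in G1E-ER4+E2. Peaks at or above percentile 90 of their list by width numbered 1 in each G1E replicate and 3 in each G1E-ER4+E2 replicate. The widest peak of the locus was 19.4 and 16.6 kb in G1E and 21.6 and 23.2 kb in G1E-ER4+E2. The q-values were small enough to be listed as 0 for 2 peaks in each G1E replicate and 4 peaks in each G1E-ER4+E2 replicate. The share of such peaks over each whole list was not counted, so these numbers have no background and show no difference of the locus. The same number of peaks was thus spread over more DNA.

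Overlapping peaks of the 4 replicate lists were joined into intervals, which gave 9 in the window, numbered from the low to the high coordinate. The map of the peaks shows them in all 6 lists.

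**Figure D1:**
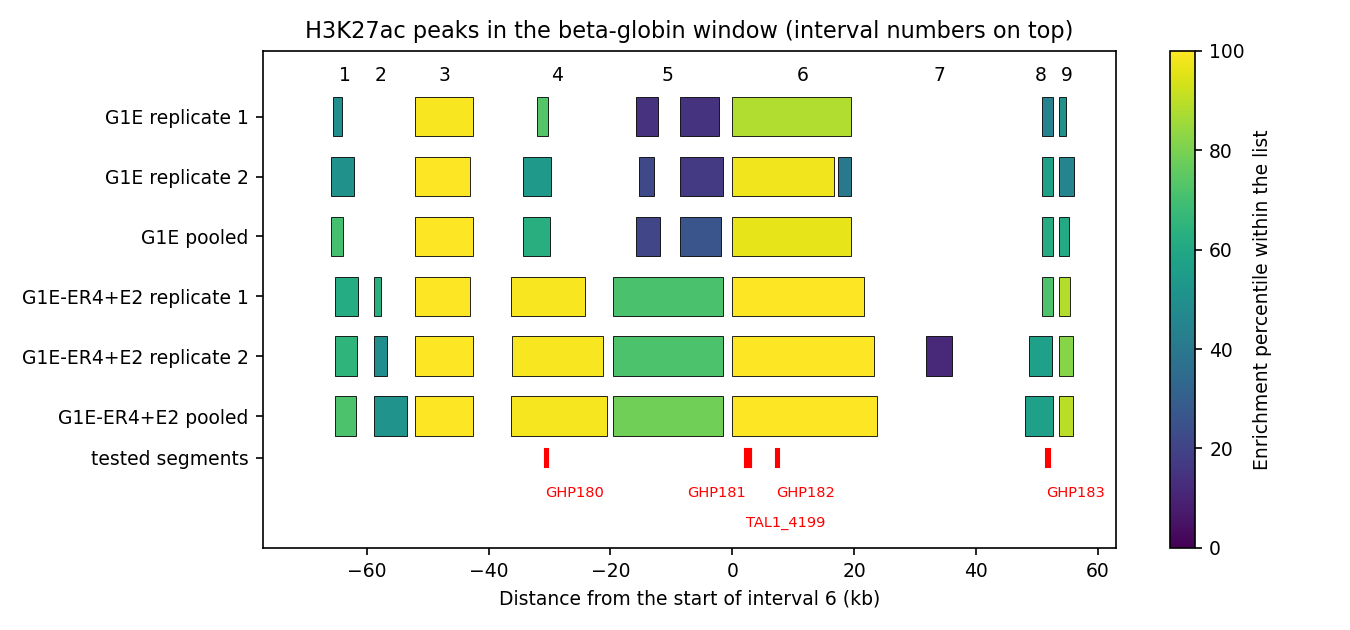
H3K27ac peaks of the beta-globin window in the 4 replicate and 2 pooled lists, drawn to scale against the distance in kb from the start of interval 6, with colour giving the percentile of enrichment within the list and red bars the DNA segments tested for enhancer activity by transfection. Interval 3 has the same extent to within 0.4 kb in every list, interval 4 is short in the G1E lists and long in the G1E-ER4+E2 lists, and interval 5 is 2 peaks in each G1E list and 1 in each G1E-ER4+E2 list.

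Interval 3, at chr7:110955001-110964400, was the most enriched part of the locus in every list and had the same mean length in both lines. It was covered over 9.4 and 9.0 kb in the G1E replicates and 9.0 and 9.4 kb in the G1E-ER4+E2 replicates. The groups overlapped fully, with a mean of 9.2 ± 0.283 kb in each (SD, n = 2). Its start was at the same grid position in 6 of 6 lists, and its end in 4 of 6. Its enrichment was 31.1 and 50.1 in G1E, at percentiles 98.9 and 99.8 of the lists, and 27.7 and 44.3 in G1E-ER4+E2, at percentiles 99.9 and 99.97. By rank it stood at 238 and 47 among all peaks of the G1E replicates and at 27 and 7 among those of the G1E-ER4+E2 replicates. On chromosome 7 it was the peak with the highest enrichment in G1E-ER4+E2 replicate 2 and ranked 2 in replicate 1. It thus lay near the top of every list, with the ranks higher in both G1E-ER4+E2 replicates.

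Interval 4, at chr7:110970601-110985800, showed the largest gain in length of the 9. It was covered over 1.8 and 4.6 kb in the G1E replicates and over 12.2 and 15 kb in the G1E-ER4+E2 replicates. Both G1E-ER4+E2 values were well above both G1E values, a mean difference of 10.4 kb and a ratio of 4.25. Both ends moved, the start from 110975001 and 110972601 in G1E to 110970601 and 110970801 in G1E-ER4+E2, and the end from 110976800 and 110977200 to 110982800 and 110985800. On the high side the gain was thus larger than on the low side. The pooled peaks were 4.4 and 15.8 kb wide. Its enrichment was 11.7 and 8.63 in G1E, at percentiles 73.2 and 53.6, and 17.0 and 21.1 in G1E-ER4+E2, at percentiles 99.1 and 98.9. A peak of middling rank in G1E therefore stood in the top few percent of the G1E-ER4+E2 lists.

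Interval 5, at chr7:110987401-111005400, was 2 weak peaks in G1E and a single wide one in G1E-ER4+E2. The G1E peaks were 3.6 and 6.4 kb in replicate 1 and 2.6 and 7.0 kb in replicate 2, with 3.6 and 4.2 kb between them that were in no peak. In both G1E-ER4+E2 replicates and in the pooled list 1 peak of 18 kb had the same borders. The interval was covered over 10.0 and 9.6 kb in G1E against 18 kb in each G1E-ER4+E2 replicate, a difference of 8.2 kb and a ratio of 1.84. Enrichment of the G1E peaks was between 2.48 and 3.50, at percentiles from 14.3 to 21.6. In G1E-ER4+E2 it was 4.68 and 6.13, at percentiles 71.4 and 71.8. This was the largest rise in percentile of the 7 intervals with a peak in all 4 replicates, and no value of 1 group came near those of the other.

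Such merging was not common. Of the pooled G1E-ER4+E2 peaks over the whole genome, 8.30% overlapped 2 or more pooled G1E peaks, and 5.96% of the pooled G1E peaks overlapped 2 or more of those of G1E-ER4+E2. In the locus 1 of 8 pooled G1E-ER4+E2 peaks did so, the peak of interval 5.

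Interval 6, at chr7:111007001-111030200, held the widest peak of the locus in every list. It was covered over 19.4 and 18.6 kb in the G1E replicates and 21.6 and 23.2 kb in the G1E-ER4+E2 replicates, a difference of 3.4 kb and a ratio of 1.18. Its start was at the same position in 6 of 6 lists, and its high end moved from 111026400 in both G1E replicates to 111028600 and 111030200. In G1E replicate 2 the interval was split into peaks of 16.6 and 2.0 kb by a gap of 0.8 kb. That gap lay within a peak in every other list, G1E replicate 1 included. Enrichment of the main peak was 16.9 and 31.4 in G1E, at percentiles 88.0 and 97.7, and 21.1 and 32.3 in G1E-ER4+E2, at percentiles 99.6 and 99.8. Its rank among all peaks was 2594 and 549 in G1E and 103 and 42 in G1E-ER4+E2, and the G1E replicates differed from each other more than those of G1E-ER4+E2 did.

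Intervals 5 and 6 were separate peaks in every list, with a narrow gap that kept its place. The gap was 1.6 kb in G1E replicate 2, in both G1E-ER4+E2 replicates and in the pooled G1E-ER4+E2 list, 1.8 kb in the pooled G1E list and 2.2 kb in G1E replicate 1. The gap between intervals 4 and 5 behaved otherwise. It was 14.4 kb in both G1E replicates and 4.6 and 1.6 kb in the G1E-ER4+E2 replicates, and 14.2 and 1.0 kb in the pooled lists. In the pooled G1E-ER4+E2 list the H3K27ac of intervals 4 to 6 was thus broken only by gaps of 1.0 and 1.6 kb.

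**Figure D2:**
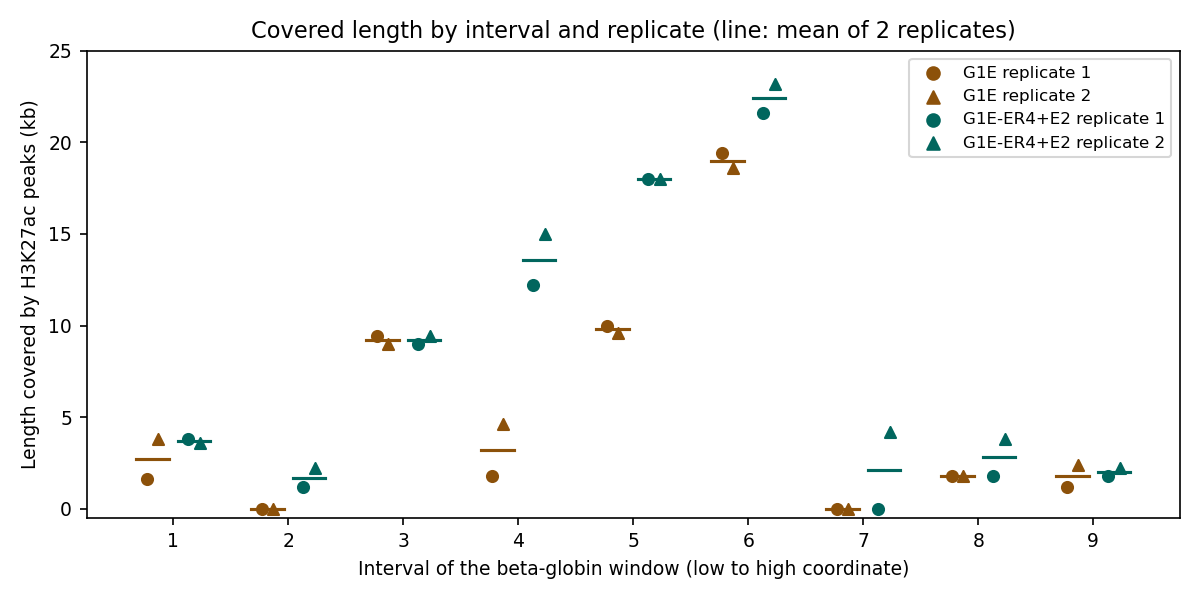
Length in kb covered by H3K27ac peaks in each of the 9 intervals of the beta-globin window, with 1 point per replicate and a line at the mean of the 2 replicates of a group. Interval 3 has a mean of 9.2 kb in both groups, and the gap between the groups is widest at interval 4, with means of 3.2 and 13.6 kb, and interval 5, with means of 9.8 and 18 kb.

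The remaining intervals were short. Interval 2, at chr7:110948201-110950400, had no peak in either G1E replicate or the pooled G1E list and peaks of 1.2 and 2.2 kb in the G1E-ER4+E2 replicates, with enrichment 3.82 and 3.53 at percentiles 63.6 and 49.1. Its start was the same in all 3 lists that had it, and in the pooled list it reached on to 110953600, a width of 5.4 kb. Interval 7, at chr7:111038801-111043000, was a peak of 4.2 kb in G1E-ER4+E2 replicate 2 and in no other list, and its enrichment of 2.04 was at percentile 11.0. It was the weakest peak of the locus in that list, and no pooled list had a peak there.

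Interval 1, at chr7:110941201-110945600, lay at the low end of the locus. It was covered over 1.6 and 3.8 kb in G1E and 3.8 and 3.6 kb in G1E-ER4+E2, and the groups overlapped. Intervals 8 and 9, at chr7:111055601-111059600 and chr7:111060601-111063000, lay at the high end, 1.0 or 1.2 kb apart in every list. Interval 8 was 1.8 kb in 3 replicates and 3.8 kb in G1E-ER4+E2 replicate 2, and interval 9 was 1.2 and 2.4 kb in G1E and 1.8 and 2.2 kb in G1E-ER4+E2. The lengths of all 3 overlapped between the groups. In percentile, interval 9 was higher in G1E-ER4+E2, at 88.4 and 81.7 against 50.4 and 45.2, and interval 1 was too, at 61.5 and 65.0 against 49.4 and 50.4. Interval 8 overlapped between the groups, at 43.9 and 57.3 in G1E and 71.7 and 56.4 in G1E-ER4+E2.

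**Figure D3:**
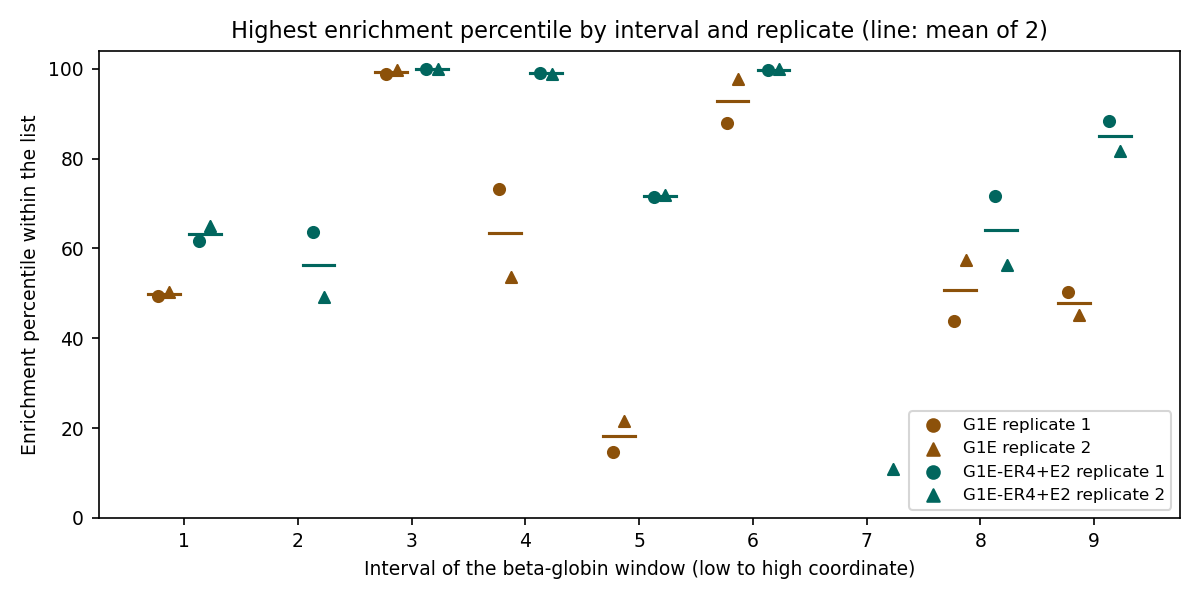
Percentile of enrichment within the list for the most enriched peak of each interval, with 1 point per replicate and a line at the mean of the 2 replicates where both have a peak. Interval 3 is near 100 in all 4 replicates, interval 5 is at 14.7 and 21.6 in G1E and 71.4 and 71.8 in G1E-ER4+E2, and interval 7 has a point for G1E-ER4+E2 replicate 2 alone.

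The locus was then set against all intervals of the genome built in the same way. Of 33011 intervals, 39.0% were covered over a greater length in both G1E-ER4+E2 replicates than in both G1E replicates, and 24.4% over a smaller length. In the locus 4 of 9 were longer, intervals 2, 4, 5 and 6, and 0 of 9 were shorter. How the longer intervals stood to the background depended on the lists. In the pooled lists 7 of 8 were longer, against 60.0% over the genome, and with all lists cut to the same covered length 4 of 8, against 24.2%. Without G1E-ER4+E2 replicate 2 it was 4 of 8, against 55.9%, and without G1E replicate 1 it was 4 of 9, against 43.5%. It was 6 of 9 without G1E replicate 2, against 42.6%, and 6 of 9 without G1E-ER4+E2 replicate 1, against 54.3%. Without G1E replicate 1 the count of shorter intervals was 1 of 9, against 32.8% over the genome. Of 26384 pooled G1E-ER4+E2 peaks, 40.3% overlapped no pooled G1E peak, whereas in the locus 1 of 8 did so, that of interval 2. In the other direction 29.7% of pooled G1E peaks had no counterpart, and 0 of 8 in the locus. Most H3K27ac of the locus in G1E-ER4+E2 was therefore in intervals that already had a peak in G1E.

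Of the 12090 intervals of the genome with a peak in all 4 replicates, 46.1% had a higher enrichment percentile in both G1E-ER4+E2 replicates than in both G1E replicates, and 22.3% a lower one. In the locus 7 of 9 intervals had a peak in all 4, and 6 of these had a higher percentile and 0 a lower one. The share over the genome depended on the lists. With all lists cut to the same covered length it was 21.8%, against 5 of 7 in the locus, and in the pooled lists 58.3%, against 6 of 7. With only the peaks from the median enrichment of their list upward, which removes all G1E peaks of interval 5 among others, 3 intervals had a peak in all 4 replicates and all 3 had a higher percentile, against 41.6% over the genome. By length, 40.4% of the 12090 were longer and 25.7% shorter, against 3 and 0 of 7 in the locus. The median ratio of length was 1.09 over all 12090 and 1.37 over the 7 of the locus, and the median rise in percentile was 5.20 and 13.4 points. The ratio of 4.25 at interval 4 was reached by 354 intervals, or 2.93%, and the rise of 53.4 points at interval 5 by 127, or 1.05%. Other values were more common. In length, the gain of 10.4 kb at interval 4 was reached by 7.73%, and the ratios of 1.84 at interval 5 and 1.18 at interval 6 by 19.7% and 44.2%. In percentile, rises of 35.6 points at interval 4 and 37.3 at interval 9 were reached by 5.85% and 5.01%, and those of 13.4 points at intervals 1 and 8 and 6.93 at interval 6 by 31.8%, 31.8% and 45.8%. Interval 3, already at the top of its lists, rose by 0.593 points.

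On the 200-bp grid, the locus had 415 of its 700 bins in a peak of at least 1 replicate. Of these, 93 bins, or 22.4%, were in both G1E-ER4+E2 replicates and in neither of G1E, where the background over 1166584 covered bins was 23.0%. In the pooled lists 169 bins, or 40.6%, were in G1E-ER4+E2 alone, against 42.1% over the genome, so in both kinds of list the share was near the background. With peaks from the list median upward it was above the background, at 143 bins or 36.9% against 23.9%. That cut took the covered length of the locus in G1E from 45.2 and 49.8 kb to 31.8 and 35.8 kb. In G1E-ER4+E2 it left 69.4 kb unchanged and took 81.6 kb to 75.2 kb. Some of these bins thus held weaker G1E peaks that the cut removed, so this share cannot show a gain. With all lists cut to the same covered length the share was 23.6% against 15.6%. In the opposite direction there were 2 bins, or 0.482%, both in interval 1, against a background of 10.2%. Without G1E-ER4+E2 replicate 1 the count in G1E-ER4+E2 alone was 153 bins, or 37.0% against 34.2% over the genome. Leaving out the other replicates gave 29.8% against 26.1% without G1E replicate 2, 24.6% against 28.6% without G1E replicate 1 and 26.8% against 34.5% without G1E-ER4+E2 replicate 2, so the locus lay above the background in some of these settings and below it in others. Without G1E replicate 1 the count in G1E alone was 4 bins, or 0.964% against 13.9%. A larger share of the bins was in all 4 replicates, with 212 bins or 51.1% in the locus and 28.5% in the genome. The bins gained in both G1E-ER4+E2 replicates were 37 in interval 4, 37 in interval 5, 11 in interval 6, 6 in interval 2 and 2 in interval 1. Intervals 4 and 5 together made 18.6 kb of the mean difference of 28 kb in covered length, or 66.4%.

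Outside the locus H3K27ac stopped abruptly. Of the 10 windows of 140 kb next to the locus, 5 on each side, 8 held no peak in any list, including both that adjoin it. The median window of the genome was not covered in any list either, so an empty neighbour is common. The other 2, the third and the fourth on the high side, were covered over at most 8.2 kb. On the low side the nearest peak was 786.2 and 786 kb from the outermost peak of the locus in the G1E replicates, and 1104 and 788.4 kb in the G1E-ER4+E2 replicates. On the high side it was 330.0 and 303.8 kb away in G1E and 329.8 and 329.4 kb in G1E-ER4+E2. The acetylated block thus stood alone on its stretch of chromosome 7 in both lines.

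**Figure D4:**
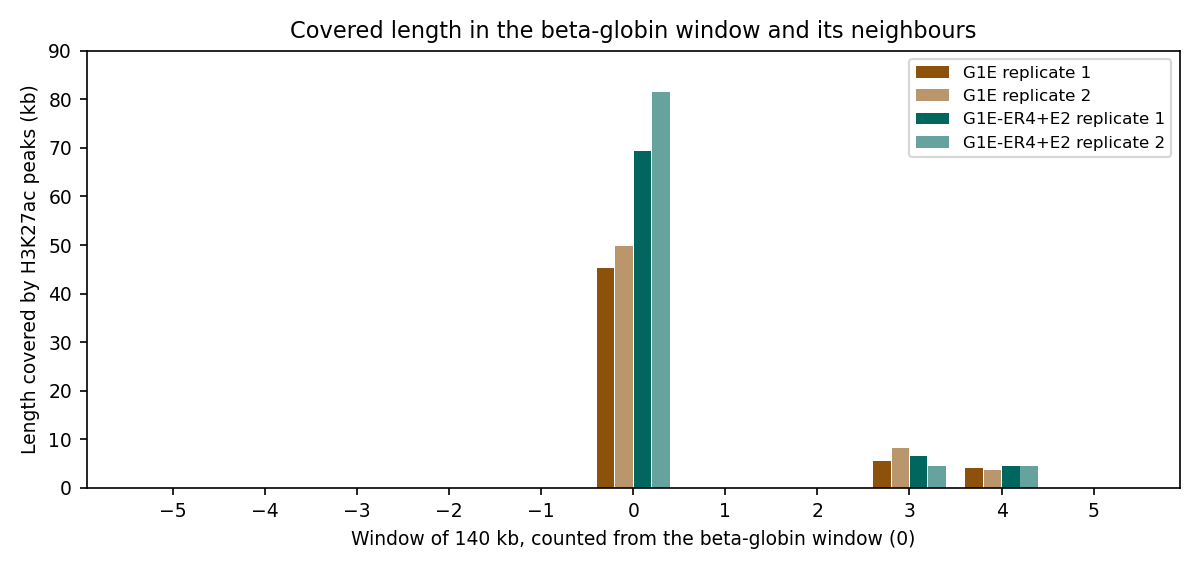
Length in kb covered by H3K27ac peaks in the beta-globin window (0) and in the 5 windows of 140 kb on each side, with 1 bar per replicate. The locus reaches 45.2 to 81.6 kb, 8 neighbours have no peak in any replicate, and windows 3 and 4 on the high side reach at most 8.2 kb.

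A set of 273 DNA segments had been tested for enhancer activity by transfection, some of them in earlier work of the same laboratory, and 5 of them lay in the window. GHP180 was at chr7:110976237-110976785, in interval 4. GHP181 at chr7:111009147-111010117, TAL1_4199 at chr7:111009281-111010007 and GHP182 at chr7:111014109-111014707 were all in interval 6. GHP183 was at chr7:111058492-111059040, in interval 8. GHP181 and TAL1_4199 share 727 bp, the whole of TAL1_4199, so they are not separate observations. TAL1 is a partner of GATA1 in erythroid gene activation, and TAL1_4199 was chosen by the study for binding of TAL1. The primers that amplified it are shown as the designed ends of a tested piece of the locus, 24 bases each.
TAL1_4199 forward: aacagggtaccagtgaatgtctgc
TAL1_4199 reverse: tgcatcttgactagttcccacacc

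All 5 segments were wholly inside a peak in all 6 lists. Of all 273 segments, 151 and 149 were in a peak of the G1E replicates and 175 and 178 in one of the G1E-ER4+E2 replicates. That set includes some negative controls, and 3 of the 5 segments of the locus lie in the same peak, that of interval 6. GHP180 lay at the edge of acetylation in G1E, with its end 0.015 and 0.415 kb from the high border of the peak, and deep inside it in G1E-ER4+E2, 6.01 and 9.01 kb from that border. The 3 segments of interval 6 kept their distance from its low border, 2.15 kb for GHP181, 2.28 kb for TAL1_4199 and 7.11 kb for GHP182 in all 6 lists, because that border did not move. GHP183 lay 0.56 kb from the high border of its peak in 5 of 6 lists and 0.36 kb from it in G1E-ER4+E2 replicate 2.

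The segments differed in the rank of their peaks. Ordered by enrichment of the peak they lie in, among all segments in a peak of that list, those of interval 6 shared rank 45 of 151 and 9 of 149 in the G1E replicates and 25 of 175 and 1 of 178 in the G1E-ER4+E2 replicates. In these orders of unequal length GHP180 was at ranks 75 and 119 in G1E and 35 and 34 in G1E-ER4+E2. GHP183 was in the lower part of each order, at ranks 128 and 111 in G1E and 114 and 140 in G1E-ER4+E2. These ranks describe peaks and not the segments themselves, since a peak up to 23.2 kb wide in the replicates has 1 enrichment for its whole length.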

How the data were processed

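H3K27ac (antibody Abcam Ab4729) was mapped in 2 replicates of G1E and 2 of G1E-ER4+E2 cells. The authors deposited broad peaks for each replicate and 1 pooled list per line. How the replicates were pooled, the control and the settings of the caller are not given in the sources used here. The submitters' processing notes name bcl2fastq 1.8.4, Bowtie 1.0.0, SICER 1.1 and mm9, with no roles. In the deposited lists the enrichment is a ratio, and the p-values and q-values are those of the authors' peak caller, with q at most 0.01. Only the q-values were used, for ranges and a stricter filter.

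Peaks were joined, measured and ranked in Python 3.11.15 with NumPy 2.4.6, promoters were aligned with Biopython 1.88 and plots were drawn with Matplotlib 3.10.9. Groups were compared over the 2 replicates each by a two-sided exact permutation test, and features by counts beside the same counts over the genome. No comparison used read depth, which is unknown. The code was tested on simulated peaks. The window, members and lists were chosen with earlier results of these data known. Named were the member genes, every peak and tested segment of the window, the nearest peaks outside it, and neighbouring genes by order. Comparisons by interval and of percentiles were added after the data were seen. The alternatives were enrichment from the list median, q at most 1e-05, equal covered length, peaks closer than 1 kb joined, the pooled lists, each replicate left out, the replicate block, and, for segments, 50% or the midpoint covered. Sequences came from RefSeq (GRCm38.p6) and the study's primer list, and no coordinates were converted between builds. Alpha-globin genes were not placed on mm9 and are not described.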

Additional observations from a re-analysis of the deposited data

How the results depend on the processing

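The difference in covered length kept its direction under every alternative run, but some runs could not change it. Leaving out a replicate could not, since both G1E-ER4+E2 values were above both G1E values. The stricter q removed no peak of the locus, and the replicate block keeps the same difference. It was 38.5 kb with peaks from the list median of enrichment upward, 28 kb with q at most 1e-05, 25.9 kb at equal covered length, 27.6 kb with peaks closer than 1 kb joined, 33.2 kb in the pooled lists and 21.9 to 34.1 kb with a replicate left out. Of 99 alternative values, 8 were counts that moved by more than 1.5 times or to or from 0. A reversal was defined only for the difference in covered length, and 0 of its values reversed. The other 91 were counts and lengths within 1.5 times or, for the difference in covered length, in the same direction. With peaks from the list median, bins in G1E-ER4+E2 alone rose from 93 to 143, bins in G1E alone fell from 2 to 0, and intervals with a higher percentile fell from 6 to 3, where fewer G1E peaks are kept. In the pooled lists the bins in G1E-ER4+E2 alone were 169 and the longer intervals 7. There a call needs 1 list per line, and the lists themselves differ, with 201 Mb covered in the pooled G1E-ER4+E2 list against 163 and 161 Mb in its replicates. The cause was not tested. With a replicate left out, bins in G1E-ER4+E2 alone were 95 to 153 (153 without G1E-ER4+E2 replicate 1), bins in G1E alone 2 to 4 (4 without G1E replicate 1), longer intervals 4 to 6 (6 without G1E replicate 2 or G1E-ER4+E2 replicate 1), shorter intervals 0 to 1 (1 without G1E replicate 1) and intervals with a higher percentile 6 to 7. The shares over the genome moved too, to 26.1 to 34.5% for bins in G1E-ER4+E2 alone, 42.6 to 55.9% for longer intervals and 51.7 to 57.0% for higher percentiles. All 5 tested segments stayed in a peak except with peaks from the list median in G1E replicate 1 and at equal covered length in the pooled G1E-ER4+E2 list, with 4 each.

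With the replicate number as a block, the difference was 28 kb and the exact sign-flip permutation p was 0.5, the smallest that 2 pairs allow. The labels do not say that the numbers pair samples, and the correlation of the differences between replicates 1 and 2 in the 2 groups was 0.146 over 33011 intervals, so the samples were taken to share only a number. With 2 replicates per group the exact permutation test cannot pass 0.05, and without read counts the precision of a border or an enrichment cannot be given.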
